A study of Rattus norvegicus with 12 samples.

Results

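The late transcriptional response of rat vascular smooth muscle cells to angiotensin II (Ang II) was examined by setting cells exposed to the peptide for 24 h against untreated cells. The comparison rests on 6 of the 12 arrays of the study, namely the 3 titled as 24 h of Ang II and the 3 titled as treated without Ang II, and covers 14506 genes, each represented by the probe set with 1 gene symbol and the highest mean over all 12 arrays. The treated cells were aortic smooth muscle cells of Sprague-Dawley rats, labelled as differentiated, that had been grown in M199 medium containing 10% FBS, depleted of serum over 48 h and given 100 nM Ang II for 24 h. The untreated cells were of the same strain, tissue, label and serum depletion and received no Ang II. Cells of the same source and serum depletion given 100 nM Ang II for 6 h and for 12 h, with 3 arrays each, enter below as earlier times. The treatment protocol of the labels names 1, 3 or 24 h, whereas times of 6, 12 and 24 h stand in the titles and the design text and are the ones followed. Untreated cells kept for 24 h longer were not analysed here, so the effects of Ang II and of time in culture cannot be told apart. The arrays are labelled as biological replicates, with no word on whether animals or cultures were separate. The p-values therefore reflect only how far these arrays spread, and 3 arrays a group allow only limited precision. That spread, which also sets the standard errors, was estimated from all 12 arrays, those of 6 h and 12 h included.

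Ang II is the effector peptide of the renin-angiotensin system, and it acts on vascular smooth muscle mainly through the type 1 receptor, a receptor coupled to G proteins. Receptor occupancy raises cell calcium and contracts the cell, and it also activates MAP kinases that induce immediate-early transcription factors. Over longer exposure Ang II is known for growth of the vessel wall, with enlarged muscle cells and altered extracellular matrix. Smooth muscle cells can also move between a contractile state, rich in actin-binding and myosin genes driven by serum response factor (SRF) and its cofactor myocardin, and a proliferating or matrix-producing state.

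The values are log2 expression values from Rat Gene 1.0 ST arrays. Across genes, which are not independent replicates, arrays of the same group correlated at 0.9975 to 0.9984, and a 24 h array correlated with an untreated one at 0.9911 to 0.9924. The interquartile range of the log2 values was 3.30, 3.22 and 3.30 on the 24 h arrays and 3.37, 3.39 and 3.39 on the untreated arrays. The array spread was thus narrower in all 3 arrays of the 24 h group, and its part in the results below was not tested. All 8 measured markers that define smooth muscle were present at high level, with means per gene of 11.3 to 14.5 at 24 h and 10.7 to 14.4 in untreated cells on the log2 scale.

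At 24 h of Ang II, 2222 genes were higher and 2136 lower than in untreated cells (limma, adjusted p under 0.05), which is 30.0% of all genes tested, with 15.3% higher and 14.7% lower. At a further minimum of 1.5-fold, 230 genes (1.59%) were higher and 332 (2.29%) lower, and in all 562 of these (3.87% of all genes) the 3 arrays of one group lay wholly above the 3 of the other. At 2-fold the numbers were 49 higher (0.338%) and 85 lower (0.586%). Non-overlapping arrays were common in general, at 44.8% of all genes, of which 25.4% had all 24 h arrays above and 19.4% all below the untreated arrays. The median log2 change over all genes was 0.05, and the share of higher genes among all called was 51.0%. After centring each array on its median this share was 67.5% and the median change 0.10, so directions of small changes are relative to the scale. In RNA from whole cultures, fewer cells of a kind and less RNA per cell cannot be told apart.

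The changes depended on the level at which a gene was measured. Genes were ranked by level into 4 bins of equal size. In the lowest bin (up to 6.29 on the log2 scale) the median log2 change was 0.10, with 290 genes higher and 42 lower. In the third bin the balance was the other way round, with 536 genes higher and 925 lower and a median of -0.04. The top bin had 933 higher and 824 lower genes, which is 48.4% called, and in the lowest bin 9.15% were called. After a further quantile normalization the medians of the lowest and the third bin were both 0.01.

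**Figure D1:**
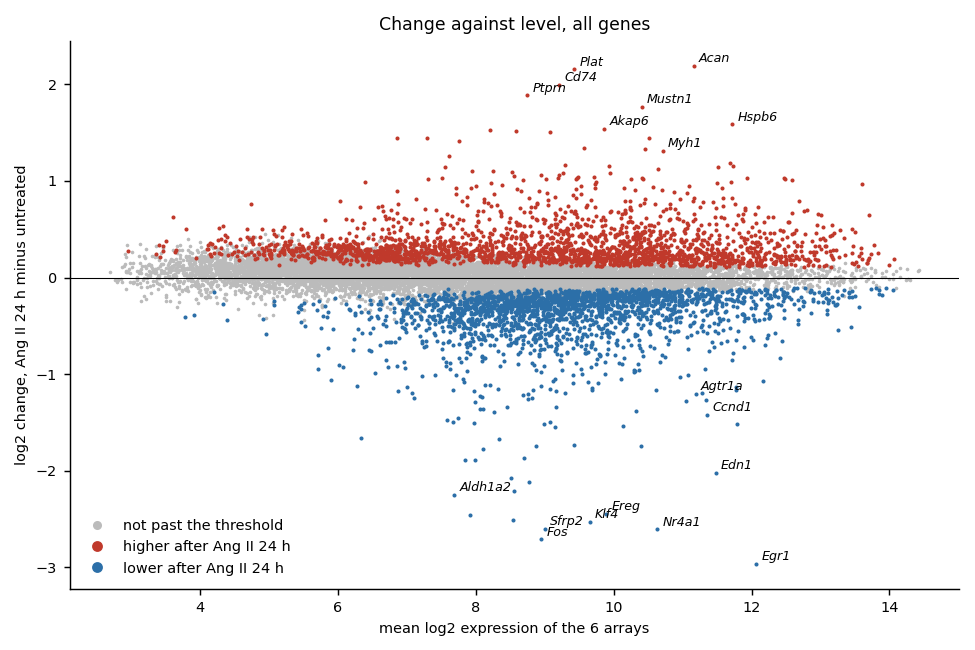
Log2 change of each of the 14506 genes at 24 h of Ang II against untreated cells (vertical axis) over its mean log2 expression on the 6 arrays (horizontal axis), with genes higher at 24 h in red, lower in blue and those not past the threshold in grey. The falls reach further than the rises, with Egr1 at -2.96 and Acan at 2.19, and small rises crowd the dim end of the axis.

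The largest rise at 24 h was that of Acan, which encodes aggrecan, the large proteoglycan of cartilage that also occurs in the vessel wall. Its log2 values were 12.23, 12.29 and 12.24 after Ang II and 10.10, 10.09 and 9.99 in untreated cells, which is a rise of 4.57-fold (2.19 ± 0.04 on the log2 scale, with 3 arrays a group and the standard error after the sign, limma adjusted p = 8.49e-11). The tissue plasminogen activator gene Plat followed with 10.46, 10.48 and 10.57 after Ang II and 8.18, 8.40 and 8.46 in untreated cells (4.46-fold, 2.16 ± 0.07, adjusted p = 2.5e-09). In both genes each treated array lay more than 1.5-fold above each untreated array. Cd74, the invariant chain that escorts MHC class II molecules, had values of 10.14, 10.19 and 10.29 at 24 h and 8.05, 8.26 and 8.33 without Ang II (3.98-fold, 1.99 ± 0.07). Ptprn, a phosphatase-like protein of secretory granules, stood at 9.65, 9.69 and 9.72 against 7.84, 7.91 and 7.65 in untreated cells (3.70-fold, 1.89 ± 0.06). The values of these genes differed far more between the groups than within them.

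The next genes by size of rise included the following. Mustn1, a small nuclear protein of the musculoskeletal system, had 11.24, 11.31 and 11.31 at 24 h and 9.53, 9.59 and 9.44 in untreated cells (3.41-fold, 1.77 ± 0.06). Hspb6, the small heat shock protein of muscle that is phosphorylated during relaxation, had 12.44, 12.52 and 12.57 at 24 h, against 10.95, 10.80 and 11.02 in untreated cells (3.00-fold, 1.59 ± 0.07). Pdlim3, a LIM protein of the muscle Z-line that binds alpha-actinin, measured 11.36, 11.18 and 11.16 after Ang II and 9.80, 9.76 and 9.80 without it (2.72-fold, 1.44 ± 0.06). None of these groups overlapped. Akap6, which anchors protein kinase A at the nuclear envelope of muscle cells (1.54 ± 0.05), Itgb1bp2, the muscle protein melusin (1.52 ± 0.07), and Fbxl22, a muscle F-box protein (1.51 ± 0.06), rose by about as much. The skeletal myosin heavy chain genes Myh1 (11.35, 11.33 and 11.41 at 24 h, against 9.99, 10.08 and 10.09 untreated, 1.31 ± 0.05) and Myh2 (9.86, 9.82 and 9.94 at 24 h, against 8.70, 8.75 and 8.69 untreated, 1.16 ± 0.07) also rose. Because skeletal myosin heavy chains are near-identical copies, probes can be shared between them and the identity of the rising copy is uncertain. The rest of the 20 largest rises were Nipal4 (2.84-fold), the lysosomal channel gene Mcoln3 (1.45 ± 0.17), the actin-bundling protein gene Lcp1 (1.45 ± 0.08), Gldn (1.42 ± 0.10), the sterol transporter gene Abcg4 (1.34 ± 0.06), Fgl2 (1.26 ± 0.12), and 2 members of the interleukin-1 receptor family, Il1rl1, the receptor of interleukin-33 (1.33 ± 0.07), and Il1rl2 (1.18 ± 0.04).

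The largest fall was that of Egr1, a zinc-finger transcription factor of the immediate-early class. Its log2 values were 10.57, 10.58 and 10.60 after 24 h of Ang II and 13.57, 13.51 and 13.56 in untreated cells, a 7.79-fold fall (log2 change -2.96 ± 0.07, adjusted p = 2.27e-10). Sfrp2, a secreted antagonist of Wnt signalling, stood at 7.83, 7.66 and 7.61 at 24 h and at 10.28, 10.21 and 10.43 in untreated cells (6.07-fold lower, -2.60 ± 0.08). Ereg, the growth factor epiregulin, had 8.84, 8.62 and 8.53 at 24 h, against 11.06, 11.15 and 11.12 in untreated cells (5.46-fold lower, -2.45 ± 0.08). The groups lay 2 or more log2 units apart in all 3 genes. Aldh1a2, which makes retinoic acid, had 6.82, 6.29 and 6.58 after Ang II and 8.67, 8.75 and 9.01 without it (4.75-fold lower, -2.25 ± 0.15). Edn1, the precursor of the vasoconstrictor endothelin-1, measured 10.55, 10.54 and 10.31 at 24 h and 12.58, 12.36 and 12.53 in untreated cells (4.06-fold lower, -2.02 ± 0.07). Thbd, the anticoagulant receptor thrombomodulin, measured 7.47, 7.54 and 7.40 at 24 h, against 9.53, 9.60 and 9.49 in untreated cells (4.20-fold lower, -2.07 ± 0.06). The 24 h arrays of these genes lay below every untreated array. Further falls among the 20 largest were those of the trypsin inhibitor gene Pi15 (-2.21 ± 0.13), the dynein subunit gene Dync1i1 (-1.89 ± 0.09), the keratan sulphate proteoglycan gene Omd (-1.89 ± 0.09), the adenylyl cyclase gene Adcy2 (-1.78 ± 0.07), the alcohol dehydrogenase gene Adh1c (-1.74 ± 0.04), the fatty acid receptor gene Cd36 (-1.74 ± 0.08) and the LIM-domain binding protein gene Ldb2 (-1.74 ± 0.13), besides the transcription factors of the next paragraph.

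**Figure D2:**
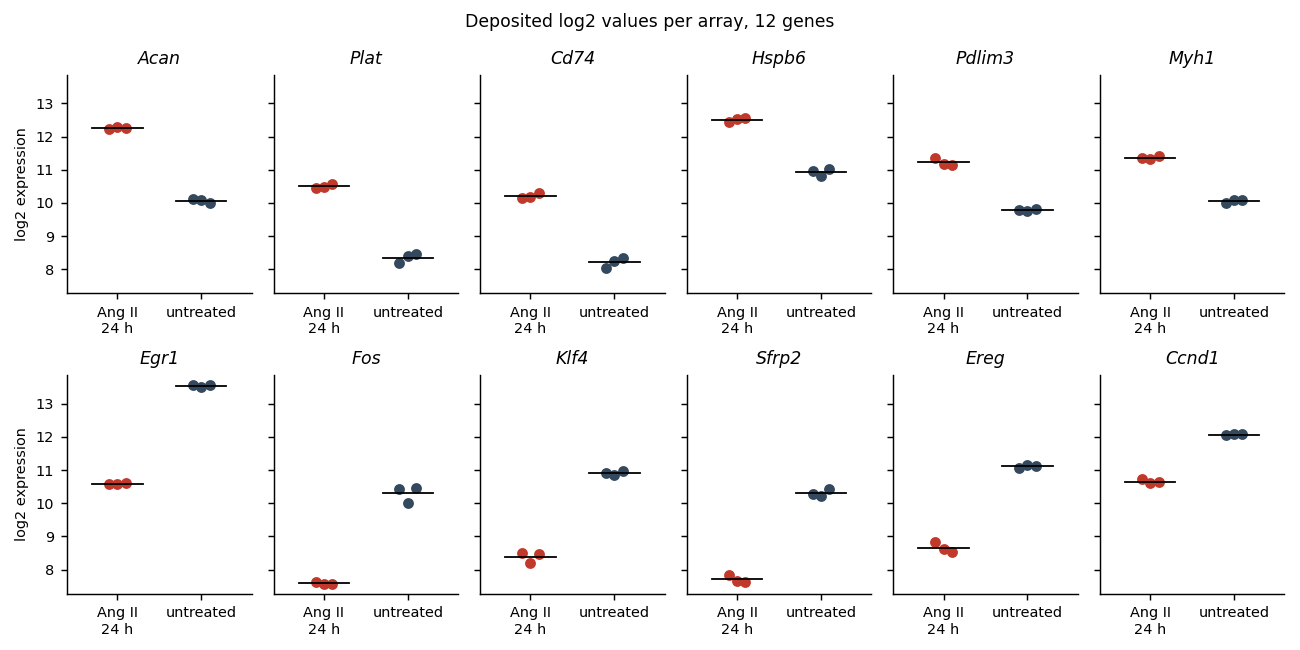
Deposited log2 expression (vertical axis) of 12 genes on each array, with the 3 arrays of Ang II 24 h (red) left of the 3 untreated arrays (blue) and a line at each group mean. In every panel the groups are apart, and the top row rises while the bottom row falls, as with Egr1 at 10.57 to 10.60 after Ang II and 13.51 to 13.57 in untreated cells.

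Immediate-early genes and AP-1 transcription factors, which respond to growth factors, stress or serum without new protein synthesis, were lower at 24 h as a group. Of 24 measured members 19 fell and 2 rose, with a median log2 change of -0.93. Egr1 and Egr2 carry CArG boxes, the sites of SRF, in the 300 bases around their gene start (250 before and 50 after), and part of each window is shown because these genes were among the largest falls (RefSeq, GRCr8, Egr1 chr18:26736928-26737027 plus strand, Egr2 chr20:21054492-21054591 minus strand, 5′ to 3′ along the gene, CArG boxes in capitals).
Egr1: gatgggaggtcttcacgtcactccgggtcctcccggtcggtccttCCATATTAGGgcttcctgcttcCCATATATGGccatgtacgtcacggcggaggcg
Egr2: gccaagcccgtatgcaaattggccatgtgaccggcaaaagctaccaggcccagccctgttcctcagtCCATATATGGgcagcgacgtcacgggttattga
A CArG box was held by 3 of the 15 members with a promoter entry (20%) and by 161 of all 11968 genes tested with one (1.35%). A match describes the letters only.

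Among these transcription factors Fos, the partner of Jun in AP-1, had values of 7.62, 7.57 and 7.57 after Ang II and 10.41, 10.01 and 10.46 in untreated cells (6.54-fold lower, -2.71 ± 0.10, adjusted p = 6.83e-09). Nr4a1, an orphan nuclear receptor, had 9.38, 9.29 and 9.32 at 24 h and 12.05, 11.73 and 12.02 without Ang II (-2.61 ± 0.11). Klf4, a factor known to repress contractile genes of smooth muscle, had 8.49, 8.20 and 8.46 at 24 h, against 10.92, 10.85 and 10.97 in untreated cells (-2.53 ± 0.07). The untreated level of each was 2 log2 units or more above the treated level. Egr3 (-2.51 ± 0.09), Egr2 (-2.45 ± 0.08) and Ier2 (-2.11 ± 0.13) were also among the 20 largest falls, as was the flow-responsive transcription factor Klf2 (-1.87 ± 0.08). The 2 members that rose were Fosl2 (0.35 ± 0.04) and Klf10. Of the 24 members 17 were lower than in untreated cells at 6 h and 17 at 12 h, where 17.2% and 13.3% of all genes were lower and 18.6% and 13.3% higher. Fos was at -1.85, -2.80 and -2.71 after 6, 12 and 24 h, and Klf4 at -1.18, -1.54 and -2.53, lower at 24 h than at either earlier time.

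Feedback regulators of MAP kinase signalling, the dual-specificity phosphatases and Sprouty proteins that switch the pathway off, were also lower at 24 h. Of 19 measured 12 fell and 1 rose (Dusp14, 0.32 ± 0.04), with a median of -0.315. Dusp5, the nuclear phosphatase of ERK, had 8.49, 8.58 and 8.41 after Ang II and 9.85, 9.78 and 9.88 in untreated cells (2.54-fold lower, -1.34 ± 0.07, adjusted p = 9.77e-08). Spry2 had 8.95, 8.77 and 8.74 at 24 h, against 9.54, 9.48 and 9.54 in untreated cells (-0.70 ± 0.07), and Trib1, a pseudokinase, had a log2 change of -0.65 ± 0.06. These genes had moved the other way at 6 h, when Dusp5 was at 0.61, Spry2 at 0.78 and Trib1 at 1.57 against the same untreated arrays. The differences between 24 h and 6 h themselves passed, at -1.95 for Dusp5, -1.48 for Spry2 and -2.22 for Trib1.

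Mitotic genes, which drive spindle assembly and chromosome segregation, were lower throughout. All 28 measured members fell at 24 h and none rose, with changes of -0.93 to -0.24 and a median of -0.61. All 28 had every 24 h array below every untreated array, which held for 19.4% of all genes. Promoters of mitotic genes often hold the CHR element, TTTGAA, through which the DREAM complex silences them in resting cells. Stretches of 60 bases are shown for the 6 mitotic genes with the largest falls that held the element in their promoter window (RefSeq, GRCr8, 5′ to 3′ along the gene, the element or its reverse complement in capitals). They lie at chr3:126017033-126017092 plus strand for Bub1b, chr8:93634613-93634672 plus strand for Ttk, chr20:19265247-19265306 plus strand for Cdk1, chr8:71320634-71320693 minus strand for Kif23, chr10:84473086-84473145 minus strand for Top2a and chr4:97236499-97236558 plus strand for Mad2l1.
Bub1b: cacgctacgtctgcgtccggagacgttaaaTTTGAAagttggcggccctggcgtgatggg
Ttk: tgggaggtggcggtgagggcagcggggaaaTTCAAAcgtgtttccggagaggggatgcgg
Cdk1: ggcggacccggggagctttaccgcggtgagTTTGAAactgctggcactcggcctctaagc
Kif23: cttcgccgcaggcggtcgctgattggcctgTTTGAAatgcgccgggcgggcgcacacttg
Top2a: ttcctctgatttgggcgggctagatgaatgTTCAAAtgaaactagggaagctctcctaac
Mad2l1: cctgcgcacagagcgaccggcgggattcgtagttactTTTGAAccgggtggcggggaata
The element, searched as TTTGAA on both strands, was found in 18 of the 24 mitotic genes with a promoter entry (75%) and in 1871 of all 11968 genes tested with one (15.6%). The list was chosen for its function and not for the motif, and a match describes the letters only.

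Ccnb1, the cyclin that activates Cdk1 for entry into mitosis, had log2 values of 9.23, 9.09 and 9.32 after Ang II and 10.16, 10.09 and 10.16 in untreated cells (1.90-fold lower, -0.93 ± 0.06, adjusted p = 3.03e-07). Bub1b, a kinase-like protein of the spindle checkpoint, had 7.83, 7.54 and 7.61 at 24 h and 8.53, 8.54 and 8.51 without Ang II (-0.87 ± 0.08). Cdk1 itself had 9.21, 9.13 and 9.24 at 24 h, against 10.02, 10.03 and 9.88 in untreated cells (-0.78 ± 0.06). Every treated value lay below the lowest untreated one. The spindle checkpoint kinase gene Ttk (-0.79 ± 0.06), the kinesin gene Kif23 (-0.77 ± 0.05), the topoisomerase gene Top2a (-0.76 ± 0.06) and the checkpoint gene Mad2l1 (-0.73 ± 0.08) changed by similar amounts. The list was low at all 3 times, with medians of -0.59, -0.35 and -0.61 at 6, 12 and 24 h, and 20 of 28 members were lower at 24 h than at 12 h while none was higher, where 27.5% of all genes were called, 13.5% lower and 14.0% higher.

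Genes of the G1/S transition and of DNA replication fell later. Of 33 measured 27 fell and 1 rose at 24 h (Ccnd2, 0.16), with a median of -0.42. Their medians at the earlier times were -0.09 at 6 h and -0.03 at 12 h, when 14 and 6 members were lower and 7 and 6 higher. Set directly against 12 h, 29 of the 33 were lower at 24 h and none higher. Ccnd1, cyclin D1, which responds to mitogens and starts the passage through G1, had 10.72, 10.59 and 10.63 at 24 h and 12.05, 12.07 and 12.08 in untreated cells (2.68-fold lower, -1.42 ± 0.05, adjusted p = 7.63e-09). Its change had been -0.03 ± 0.05 at 6 h (adjusted p = 0.75) and -0.25 at 12 h, and the difference between 24 h and 12 h was -1.17 ± 0.05. Gins1, of the replicative helicase, had 6.461, 6.596 and 6.501 after Ang II and 7.334, 7.395 and 7.457 without it (-0.88 ± 0.05). The thymidine kinase gene Tk1 (-0.79 ± 0.05) and the helicase gene Mcm7 (-0.68 ± 0.05) fell too, and in each of these genes the groups did not overlap.

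Genes that restrain the cell cycle or mark quiescence were also lower more often than higher. Of 25 measured 13 fell and 2 rose, with a median of -0.16. The sestrin gene Sesn3 (9.75, 9.60 and 9.66 at 24 h, against 10.60, 10.55 and 10.55 untreated) changed by -0.90 ± 0.06, the cyclin G2 gene Ccng2 by -0.63 ± 0.07, and the cyclin-dependent kinase inhibitor gene Cdkn2c by -0.62 ± 0.06. Txnip, the thioredoxin-interacting protein that responds to glucose, rose by 0.82 ± 0.05, with 12.18, 12.08 and 12.12 at 24 h and 11.27, 11.26 and 11.37 in untreated cells. The other member that rose was Klf9. The inhibitor gene Cdkn1a had a change of -0.06 that did not pass.

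Contractile genes of smooth muscle rose at 24 h. Of 20 measured 19 passed and all 19 were higher, with a median of 0.42 and a range over the list of 0.07 to 0.71. In all 20 every 24 h array lay above every untreated array, which held for 25.4% of all genes. The intermediate filament gene Synm had values of 7.78, 7.52 and 7.56 after Ang II and 6.92, 6.93 and 6.88 in untreated cells (1.64-fold, 0.71 ± 0.08, adjusted p = 2.74e-05). Pln, phospholamban, which regulates calcium uptake into the sarcoplasmic reticulum, had 13.26, 13.27 and 13.32 at 24 h and 12.59, 12.68 and 12.61 without Ang II (1.58-fold, 0.66 ± 0.04). Smtn, smoothelin, an actin-binding protein of contractile cells, had 12.22, 12.24 and 12.15 at 24 h, against 11.52, 11.56 and 11.56 in untreated cells (1.58-fold, 0.66 ± 0.04). The actin nucleator gene Lmod1 rose by 0.59 ± 0.04. Smooth muscle myosin, Myh11, stood at 13.40, 13.40 and 13.34 at 24 h, against 12.94, 12.94 and 12.94 in untreated cells (1.36-fold, 0.44 ± 0.04). The only member that did not pass was Acta2, smooth muscle alpha-actin, whose values of 14.43, 14.49 and 14.47 at 24 h and 14.41, 14.37 and 14.39 in untreated cells lie at the top of the scale (0.07 ± 0.04, adjusted p = 0.146). The cofactor gene Myocd rose by 0.29 ± 0.04, and its changes at 6 h and 12 h were 0.26 and 0.25.

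**Figure D3:**
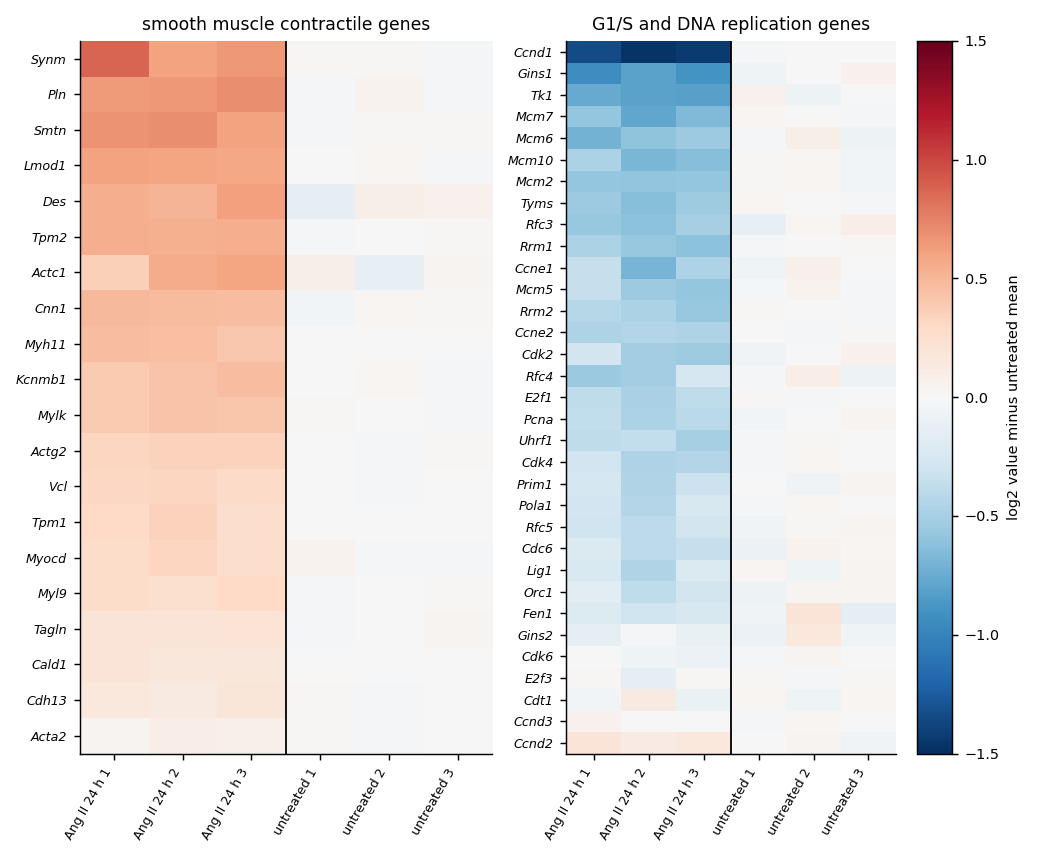
Log2 value of each gene (rows, ordered by change) on each of the 6 arrays (columns, Ang II 24 h left and untreated right), as the difference from the untreated mean on a colour scale of -1.5 to 1.5. The 3 columns of Ang II 24 h are red for the contractile genes and mostly blue for the G1/S genes, with Ccnd1 at -1.42 as the darkest row.

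The rise of the contractile list was late. At 6 h 6 members were higher and 5 lower and at 12 h 10 were higher and 2 lower, with medians of 0.02 and 0.11 against the same untreated arrays. Between 24 h and 12 h 15 of the 20 were higher and none lower, and Myh11, which was lower than in untreated cells at 6 h (-0.24) and 12 h (-0.17), was 0.61 ± 0.04 above its 12 h level at 24 h. In this list 1 of the 14 genes with a promoter entry held a CArG box in the window (7.14%, against 1.35% of all genes with one). No promoter entry was available for Tagln, Myh11 and Lmod1, which were therefore not searched. The only match, in the cardiac actin gene Actc1, is shown here (RefSeq, GRCr8, chr3:121271778-121271877 minus strand, 5′ to 3′ along the gene, CArG box in capitals).
Actc1: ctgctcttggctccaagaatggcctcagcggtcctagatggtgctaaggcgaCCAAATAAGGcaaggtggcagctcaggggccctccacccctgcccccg
The log2 values of Actc1 were 8.61, 8.81 and 8.84 at 24 h and 8.34, 8.13 and 8.29 in untreated cells (0.50 ± 0.07). Among 17 SRF cofactor and cytoskeletal genes 14 rose and 2 fell, with a median of 0.20. After quantile normalization 11 rose and 1 fell (median 0.14), and 12 to 13 rose when 1 array was left out. The actin-binding protein gene Nexn had 11.78, 11.85 and 11.71 at 24 h and 11.18, 11.06 and 11.21 in untreated cells (0.63 ± 0.05), and Pdlim7 (0.63 ± 0.04) and Ldb3 (0.57) rose by similar amounts. The members that fell were Ankrd1, a stretch-responsive nuclear protein (-0.52 ± 0.06), and Csrp2.

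Striated muscle genes were looked at after the muscle genes among the largest rises had been seen. Of 33 sarcomere genes of skeletal and heart muscle 18 rose and 1 fell (Actn2, -0.27), with a median of 0.25. The rises numbered 13 after quantile normalization (median 0.18) and 15 to 17 when 1 array was left out. Myh1 and Myh2, which were among the rises seen beforehand, are counted in the list. Besides Myh1 and Myh2 the largest rises were those of Acta1, skeletal actin, with 14.12, 14.06 and 14.07 at 24 h and 13.06, 13.14 and 13.14 in untreated cells (1.96-fold, 0.97 ± 0.04), and of Myom1, the M-band protein myomesin (0.83 ± 0.07). Further members were Myh3, embryonic myosin (0.78 ± 0.09), and Tnnc1, slow and cardiac troponin C (0.72 ± 0.07). The adult cardiac genes Myh6 (0.09), Myh7 (0.05) and Tnni3 (0.06) did not pass. Actin genes are nearly identical in their coding parts, and their signals may be shared. Among 7 small heat shock protein genes, also added after the values were seen, 3 rose and none fell. Beside Hspb6 these were Hspb7, with 8.81, 8.76 and 8.83 at 24 h and 7.62, 7.69 and 7.78 in untreated cells (2.15-fold, 1.10 ± 0.08), and Hspb1, with 13.14, 13.10 and 13.10 at 24 h and 12.41, 12.46 and 12.39 in untreated cells (0.69 ± 0.05).

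Genes of the extracellular matrix moved in both directions. Of 22 fibrillar collagens and collagen-modifying enzymes 5 rose and 7 fell, with a median of -0.01. The rises numbered 2 to 5 when 1 array was left out, with the lowest count without untreated replicate 1, and median centring gave 7 rises and 6 falls. Col11a1, a minor fibrillar collagen, had 8.88, 8.82 and 8.87 at 24 h and 9.91, 9.97 and 9.97 in untreated cells (2.13-fold lower, -1.09 ± 0.05). Col3a1, a main collagen of the vessel wall, changed by -0.35 ± 0.04, and Col1a1 by -0.25, whereas Col12a1 rose by 0.31. Of 25 elastic fibre and adhesive glycoprotein genes 8 rose and 6 fell, and 3 fell without any one of untreated replicates 2 and 3 and Ang II 24 h replicate 2. Postn, periostin, a matricellular protein of injured vessels, had 13.07, 13.09 and 13.10 at 24 h and 12.04, 12.07 and 12.12 in untreated cells (2.02-fold, 1.01 ± 0.04, adjusted p = 9.29e-09). Ccn3 rose by 0.64 ± 0.04, and Spp1, osteopontin, by 0.49 ± 0.04 (13.52, 13.50 and 13.54 at 24 h, against 12.99, 13.08 and 13.03 untreated). The elastin gene Eln fell by 0.31 on the log2 scale.

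Proteoglycan and hyaluronan genes also moved in both directions. Of 24 measured 8 rose and 8 fell, with a median of 0.02. The rises included Acan, as above, and Cspg4, the pericyte and smooth muscle proteoglycan NG2, at 12.04, 11.98 and 11.97 after Ang II and 11.00, 11.01 and 11.03 in untreated cells (1.98-fold, 0.98 ± 0.04). The falls were led by Omd, Lum and Dcn, small leucine-rich proteoglycans, a family that binds collagen fibrils. Omd had 7.11, 6.86 and 7.15 at 24 h, against 8.97, 8.78 and 9.03 in untreated cells (3.70-fold lower). Lum, lumican, changed by -0.76 ± 0.06 and Dcn, decorin, by -0.74 ± 0.07, and both were lower at 24 h than at 6 h or 12 h. Vcan, versican, and Bgn, biglycan, had changes of -0.06 and 0.01 that did not pass.

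Among 26 matrix proteases and inhibitors 9 rose and 5 fell, with a median of 0.07. Beside Plat, the protease inhibitor gene Serpine2 rose by 0.66 ± 0.08 and Mmp10, stromelysin-2, by 0.51 ± 0.11, with Mmp10 at a low level of 5.19, 5.34 and 4.93 at 24 h and 4.71, 4.62 and 4.61 in untreated cells. Adamts5, the main aggrecan-cleaving protease of mouse cartilage, had 7.90, 7.57 and 7.75 at 24 h, against 8.83, 8.92 and 8.94 in untreated cells (2.23-fold lower, -1.16 ± 0.08). Of 22 osteochondrogenic and calcification genes 9 rose and 1 fell, with a median of 0.17. The rises were led by Acan, by Enpp1, which makes the calcification inhibitor pyrophosphate (12.96, 12.98 and 13.01 at 24 h, against 11.91, 11.94 and 12.01 untreated, 1.03 ± 0.04), by Tnfrsf11b, osteoprotegerin (0.65 ± 0.04), and by the calcification inhibitor gene Mgp (0.58 ± 0.07). Among the bone transcription factor genes, Runx2 had a change of -0.03 and Sp7 of 0.09, neither of which passed.

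The receptor for the ligand was lower. Agtr1a, the main Ang II receptor of rat vessels, had log2 values of 10.60, 10.51 and 10.65 after 24 h of Ang II and 11.75, 11.80 and 11.80 in untreated cells, a 2.30-fold fall (-1.20 ± 0.06, adjusted p = 3.92e-08). The fall was smaller than at earlier times, with changes of -2.57, -1.85 and -1.20 at 6, 12 and 24 h, and the 24 h level was 1.37 above that of 6 h and 0.65 above that of 12 h. Agtr1b, the second rodent type 1 receptor gene and a near copy of Agtr1a, had 6.45, 6.30 and 6.51 at 24 h, against 5.99, 6.20 and 6.23 in untreated cells (0.28 ± 0.08, adjusted p = 0.0243). That call was lost after quantile normalization (0.19) and without any of 3 arrays (0.20 without untreated replicate 1, 0.26 without Ang II 24 h replicate 1 and 0.23 without Ang II 24 h replicate 3). Agtr2, the type 2 receptor gene, was dim and did not pass (-0.19 ± 0.13, adjusted p = 0.286, 95% interval -0.47 to 0.09). In the list of 13 renin-angiotensin genes 5 rose and 3 fell, with 3 rises without untreated replicate 1 or Ang II 24 h replicate 1. Its members included the prorenin receptor gene Atp6ap2 (0.38 ± 0.05) and the peptidase genes Mme (-0.65 ± 0.07) and Anpep (-0.48 ± 0.05).

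Genes downstream of G protein-coupled receptors moved in both directions. Of 19 regulators of G protein signalling and receptor desensitisation 6 rose and 2 fell, with 3 rises without untreated replicate 3. Rgs4, which shortens signals of Gq and Gi, had 10.81, 10.68 and 10.78 at 24 h and 9.95, 10.00 and 10.05 in untreated cells (1.69-fold, 0.76 ± 0.10), whereas its change at 6 h was -1.10. The beta-arrestin gene Arrb1 changed by -0.37 ± 0.07. Of 24 vasoactive peptide, nitric oxide and cyclic GMP genes 7 rose and 7 fell. Npr1, the receptor for atrial natriuretic peptide, had 9.29, 9.11 and 9.18 after Ang II and 8.22, 8.20 and 8.13 in untreated cells (2.01-fold, 1.01 ± 0.05). The phosphodiesterase gene Pde1a changed by -1.17 ± 0.07 and the vasodilator peptide gene Adm by -0.83 ± 0.07, alongside the fall of Edn1.

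Of 27 calcium handling and ion channel genes 10 rose and 3 fell, with a median of 0.07. Kcnma1, the pore of the large-conductance calcium-activated potassium channel, had 7.299, 7.146 and 7.446 at 24 h and 6.462, 6.306 and 6.432 in untreated cells (1.86-fold, 0.90 ± 0.10, adjusted p = 3.63e-05). Its changes at 6 h and 12 h were 0.03 and -0.05, and the difference between 24 h and 12 h was 0.95 ± 0.10. Itpr1, the inositol trisphosphate receptor (0.59 ± 0.06), and the calcium channel subunit gene Cacna2d1 (0.56 ± 0.05) rose, while the sodium-calcium exchanger gene Slc8a1 changed by -0.59 ± 0.06 with 9.51, 9.27 and 9.33 at 24 h, against 9.94, 9.97 and 9.96 in untreated cells. Cacna1c, the pore of the L-type channel, rose by 0.46 ± 0.06 at 24 h after changes of -0.71 at 6 h and -0.84 at 12 h.

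Cholesterol synthesis genes, the targets of SREBP, were lower at 24 h than at the earlier times. Of 20 measured 4 were higher and 8 lower at 24 h, with a median of -0.07. At 6 h 18 and at 12 h 19 of them had been higher and none lower. Compared directly, 18 of 20 were lower at 24 h than at 12 h and none higher, and 18 were lower and 1 higher than at 6 h, where 39.2% of all genes were called, 19.8% lower and 19.4% higher. Insig1, which retains the SREBP complex in the endoplasmic reticulum, had 12.08, 12.09 and 12.15 at 24 h and 12.73, 12.78 and 12.79 in untreated cells (1.57-fold lower, -0.65 ± 0.04, adjusted p = 3.03e-07), after changes of 0.29 and 0.30 at 6 h and 12 h. The sterol carrier gene Stard4 (-0.58 ± 0.05), the squalene epoxidase gene Sqle (-0.46 ± 0.05) and the reductase gene Dhcr7 (-0.46 ± 0.06) fell likewise. The sterol regulatory element was found in the window of 0 of the 16 members with a promoter entry, and in 1.12% of all genes with one. A match this rare cannot set so few genes apart from the rest, whether found or not. The counts against untreated cells depended on single arrays, with 1 higher without untreated replicate 1, 2 higher without untreated replicate 2 or Ang II 24 h replicate 3, and 5 lower without untreated replicate 3 or Ang II 24 h replicate 1. The balance also depended on the scaling, with 6 higher and 5 lower after median centring (median -0.01) and 2 higher and 7 lower after quantile normalization. Of 13 genes of cholesterol efflux 4 rose and none fell, a share of 30.8% that is close to the 30.0% of all genes. The rises were led by Abcg4, with 10.27, 10.23 and 10.24 at 24 h and 8.86, 8.90 and 8.96 in untreated cells (2.53-fold).

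Of 24 genes of fatty acid synthesis and lipid storage 5 rose and 6 fell. Cd36 had 7.99, 8.02 and 7.98 at 24 h, against 9.83, 9.79 and 9.60 in untreated cells (3.34-fold lower), and most of its fall came after 12 h, with changes of -0.26, -0.58 and -1.74 at 6, 12 and 24 h. Dgat2, which completes triglyceride synthesis, rose by 0.64 ± 0.06. Of 26 glycolytic and hypoxia-responsive genes 10 rose and 6 fell, among them Slc16a3, which exports lactate (0.63 ± 0.04), and the oxygen-sensing prolyl hydroxylase gene Egln3 (-0.58). Oxidative phosphorylation subunits showed 2 rises and 7 falls among 32, a share close to that of all genes, with a median of -0.05. After median centring 4 were higher and 3 lower, with a median of 0.01. The falls numbered 3 without any one of untreated replicates 1 and 2 and Ang II 24 h replicate 2, and 4 without Ang II 24 h replicate 3.

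Ribosomal protein and ribosome biogenesis genes were lower. Of 41 cytosolic ribosomal protein genes 30 fell and none rose, by amounts of up to -0.53 (Rpl15), with a median of -0.175. Leaving out 1 array gave 21 to 28 falls, and median centring gave 19. Rpl22 had 10.84, 10.86 and 10.85 at 24 h and 11.34, 11.40 and 11.31 in untreated cells (-0.50 ± 0.04). Ribosomal protein genes have many processed copies in the genome, which makes single values of this family uncertain. Of 25 ribosome biogenesis genes 12 fell and none rose (median -0.16), led by Npm1, nucleophosmin (11.13, 11.19 and 11.25 at 24 h, against 11.81, 11.68 and 11.74 untreated, -0.55 ± 0.05). At 6 h 16 of these 25 had been higher than in untreated cells, and 22 were lower at 24 h than at 6 h. Of 21 chaperone and unfolded protein response genes of the endoplasmic reticulum 18 were higher at 6 h. At 24 h 6 rose and 2 fell (5 falls after quantile normalization), which is 38.1% called, against 30.0% of all genes. Compared directly, 15 were lower at 24 h than at 6 h. Atf6, a sensor of that response, was still 0.40 ± 0.04 higher. A part of the ER stress element was found in the window of all 16 members of that list with a promoter entry, and in 40.4% of all genes with one. Of 30 ATF4 targets and aminoacyl-tRNA synthetase genes 8 rose and 5 fell, with a median of 0.06, and median centring gave 14 rises and 4 falls. The amino acid transporter genes Slc7a3 and Slc7a11 of that list changed by 0.93 ± 0.06 and -0.49 ± 0.06. Of 24 lysosome and autophagy genes 10 rose and 1 fell, with a median of 0.08, and the sialidase gene Neu1 rose by 0.53 ± 0.05. Of 27 proteasome subunit genes 4 rose and 4 fell, a share close to that of all genes, and median centring gave 10 rises and 1 fall.

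Growth factors and their receptors showed 9 rises and 15 falls among 39. Beside Ereg, the platelet-derived growth factor receptor gene Pdgfra had 8.58, 8.43 and 8.48 at 24 h and 9.63, 9.67 and 9.64 in untreated cells (2.22-fold lower, -1.15 ± 0.06), and Fgf16 changed by -1.28. Flt1, a receptor of vascular endothelial growth factor, had 9.48, 9.45 and 9.49 at 24 h, against 8.44, 8.41 and 8.39 in untreated cells (2.09-fold, 1.06 ± 0.05). Igfbp5, which binds insulin-like growth factors, rose by 0.92 ± 0.12, with changes of 0.08 and 0.07 at 6 h and 12 h. Of 29 TGF-beta and BMP genes 8 rose and 11 fell, against 10 and 9 after median centring. The ligand gene Bmp6 had 8.25, 8.19 and 8.23 at 24 h and 9.77, 9.69 and 9.75 in untreated cells (2.85-fold lower, -1.51 ± 0.07), and the BMP-responsive genes Smad6 (-0.88 ± 0.05) and Id1 (-0.86 ± 0.08) fell as well. Tgfb3, by contrast, rose by 0.50 ± 0.04. Among 33 Wnt and Notch genes 7 rose and 9 fell, against 11 and 9 after median centring, with Hes1, a Notch target, at 7.72, 7.71 and 7.91 after Ang II and 9.15, 9.07 and 9.13 in untreated cells (2.53-fold lower).

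Inflammatory genes moved in both directions. Of 33 cytokine, chemokine and adhesion genes 10 fell and 6 rose, with a median of 0.06. The chemokine gene Cxcl12 had 11.21, 11.16 and 11.26 at 24 h and 12.39, 12.30 and 12.33 in untreated cells (2.20-fold lower, -1.14 ± 0.05). Vcam1, an adhesion molecule for leukocytes, changed by -0.99 ± 0.10 and Il6, interleukin-6, by -0.92 ± 0.10, while Il1rl1 rose as above. Interferon-responsive genes had 2 rises and 6 falls among 25 (3 falls without Ang II 24 h replicate 3), a share close to that of all genes. After median centring 6 rose and 4 fell, and Ifi44 had a change of -0.63 in the deposited scale. MHC class II genes, added as a list after Cd74 was seen among the largest rises, showed 6 rises and no fall among 11 measured. Cd74 itself is counted among them. The rises numbered 4 to 5 when 1 array was left out, 5 after quantile normalization and 7 after median centring. After Cd74, RT1-Da had 7.10, 6.77 and 6.95 at 24 h and 6.16, 6.20 and 6.25 in untreated cells (0.73 ± 0.07), RT1-Ba rose by 0.67 ± 0.15, and the class II transactivator gene Ciita rose by 0.27 ± 0.07. Genes of the RT1 region are close copies of each other, so that single values are uncertain.

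NADPH oxidase and antioxidant genes included 3 rises and 10 falls among 29, with 7 rises and 8 falls after median centring and 5 rises and 9 falls after quantile normalization. Gclc, the rate-limiting enzyme of glutathione synthesis, had 10.91, 10.83 and 10.79 at 24 h and 11.80, 11.75 and 11.83 in untreated cells (1.93-fold lower, -0.95 ± 0.05). Heme oxygenase, Hmox1, changed by -0.59 ± 0.07 and thioredoxin reductase, Txnrd1, by -0.50, and Gpx1, a glutathione peroxidase, rose by 0.40 ± 0.04. The oxidase gene Nox1, which was at 1.41 and 1.61 at 6 h and 12 h, was at 0.34 ± 0.07 at 24 h. Of 15 circadian clock genes 4 rose and 6 fell. Bmal1, the positive arm of the clock, had 7.89, 7.59 and 7.70 at 24 h, against 8.41, 8.40 and 8.42 in untreated cells (-0.68 ± 0.07), and Dbp, one of its output genes, had 10.60, 10.52 and 10.64 at 24 h, against 9.96, 10.09 and 10.10 in untreated cells (0.54 ± 0.06). Both had been on the other side of the untreated level at 6 h, Bmal1 at 0.80 and Dbp at -1.32. The E-box CACGTG, read on both strands, was found in the window of 4 of the 14 clock genes with a promoter entry (28.6%) and in 8.05% of all genes with one.

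**Figure D4:**
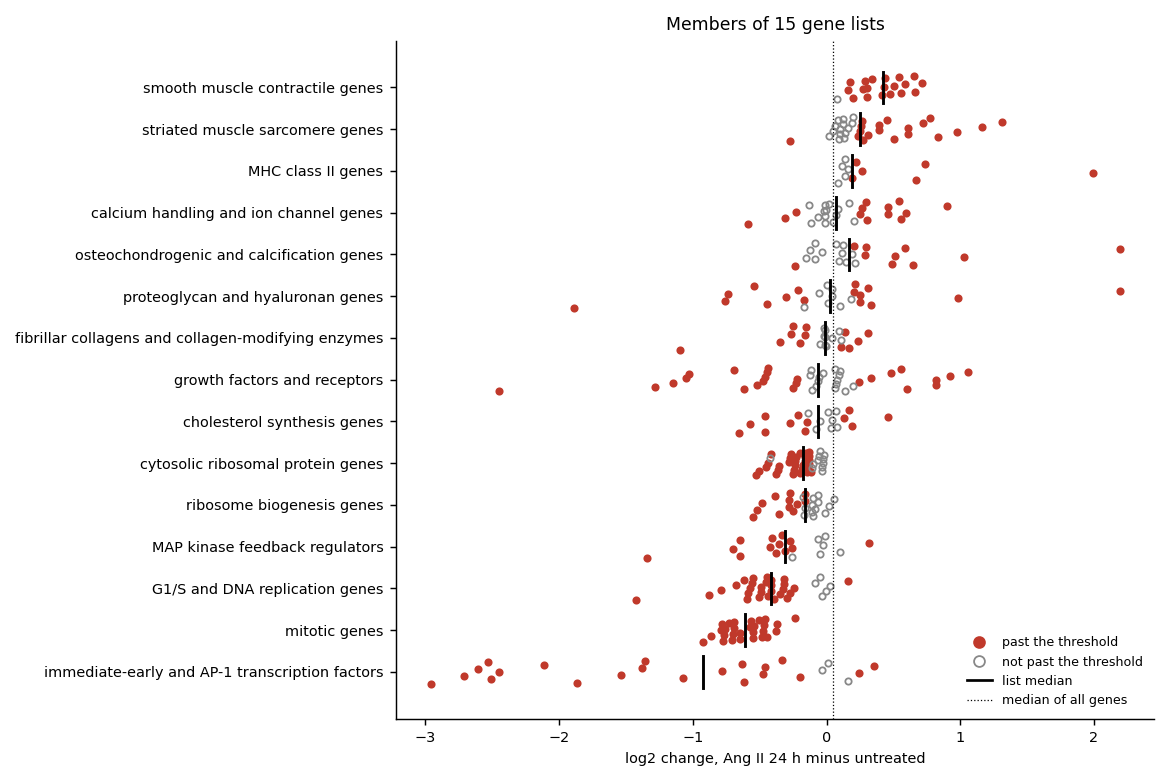
Log2 change at 24 h of Ang II against untreated cells (horizontal axis) of each member of 15 gene lists (rows), filled red where the gene passed and open where it did not, with the list median as a black bar and the median of all genes (0.05) as a dotted line. Contractile genes lie to the right with a median of 0.42, whereas the mitotic genes (-0.61) and the immediate-early genes (-0.93) lie to the left.

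Markers of other cell types that aortic cultures could hold were measured at the same time. Of 13 endothelial markers 5 rose and 1 fell (46.2% called, against 30.0% of all genes), with changes of -0.91 to 0.68. Their summed linear signal was 3581 to 3709 at 24 h and 3033 to 3124 in untreated cells. The highest mean level of a member was 10.9 at 24 h and 10.7 in untreated cells. Pecam1 and Cdh5, among the 7 members that did not pass, changed by -0.01 and 0.09. Both were dim, at 6.19 to 6.46 at 24 h and 6.17 to 6.37 in untreated cells. They do not stand for the members that passed. Of 16 leukocyte markers 3 rose and none fell (18.8% called, against 30.0% of all genes). Their sums were 2094 to 2222 at 24 h and 1162 to 1239 in untreated cells. The 3 were Cd74, Cd3g and Cd4, and the 15 markers other than Cd74 summed to 961.8 to 1012.1 at 24 h and 897.1 to 932.6 in untreated cells. Without untreated replicate 2 or 3 the count of rises was 1. The pan-leukocyte gene Ptprc stood at 5.53, 5.42 and 5.46 at 24 h and at 5.30, 5.52 and 5.65 in untreated cells (-0.02 ± 0.09, adjusted p = 0.881). Of 14 adventitial fibroblast markers 2 rose and 6 fell, with sums of 20558 to 21444 at 24 h and 21558 to 22190 in untreated cells. Those that fell include Pdgfra, Lum and Dcn, which were also counted above, and Tcf21 was dim and did not pass (0.00). The 8 smooth muscle markers summed to 91523 to 92466 at 24 h and 74364 to 75557 in untreated cells. The part of other cells in the results was not tested.

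Some changes at 24 h were also tested against the earlier times. A gene was called late where it passed in the same direction at 24 h against untreated, 6 h and 12 h, comparisons that share the 24 h arrays. There were 1413 late genes (9.74%), 698 higher (4.81% of all genes) and 715 lower (4.93%), or 32.4% of all genes called at 24 h. The contractile list held 15 late rises among 20 genes, the striated muscle list 12 among 33 and the G1/S list 20 late falls among 33. The late rises with the largest change against untreated cells were Cd74, Hspb6, Akap6, Fbxl22, Mcoln3, Pdlim3, Abcg4 and Myh1. Pdlim3 changed by 0.03, 0.27 and 1.44 at 6, 12 and 24 h, and Myh1 by 0.26, 0.17 and 1.31. The late falls with the largest change were Sfrp2, Klf4, Ereg, Aldh1a2, Omd, Klf2, Adh1c and Cd36. Ereg changed by -0.26, -1.41 and -2.45 at the 3 times.

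Against 12 h, 2028 genes were higher at 24 h and 1955 lower. A change of 1.5-fold or more was shown by 133 of the higher genes (0.917%) and 220 of the lower ones (1.52%). Against 6 h, 2813 were higher and 2875 lower, and 422 (2.91%) and 520 (3.58%) of them reached 1.5-fold. Slc7a8, an amino acid transporter, had 7.64, 7.53 and 7.53 at 24 h and 7.90, 7.96 and 8.01 in untreated cells (-0.39 ± 0.05), and its log2 difference of 24 h minus 12 h was -3.20 ± 0.05. Olr1, a scavenger receptor that takes up oxidised lipoprotein, was lower at 24 h than at 12 h by -2.32 ± 0.12 and still above untreated cells by 0.76 ± 0.12. The receptor-modifying protein gene Ramp3 changed by -2.29 ± 0.12 between 12 h and 24 h, and its difference from untreated cells at 24 h did not pass (0.15 ± 0.12, adjusted p = 0.346, 95% interval -0.10 to 0.41). Plpp3, a lipid phosphatase, was 2.04 above its 6 h level and did not pass against untreated cells (-0.09 ± 0.07, adjusted p = 0.337, 95% interval -0.25 to 0.06). Rab39a, a small GTPase of vesicle traffic, had 11.22, 11.15 and 11.23 at 24 h and 10.03, 10.04 and 10.14 in untreated cells (1.13 ± 0.07), after a change of -1.31 at 6 h. In all, 569 genes (3.92%) passed with different signs at 6 h and 24 h and also between these times, 240 of them higher (1.65%) and 329 lower (2.27%) at 24 h.

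**Figure D5:**
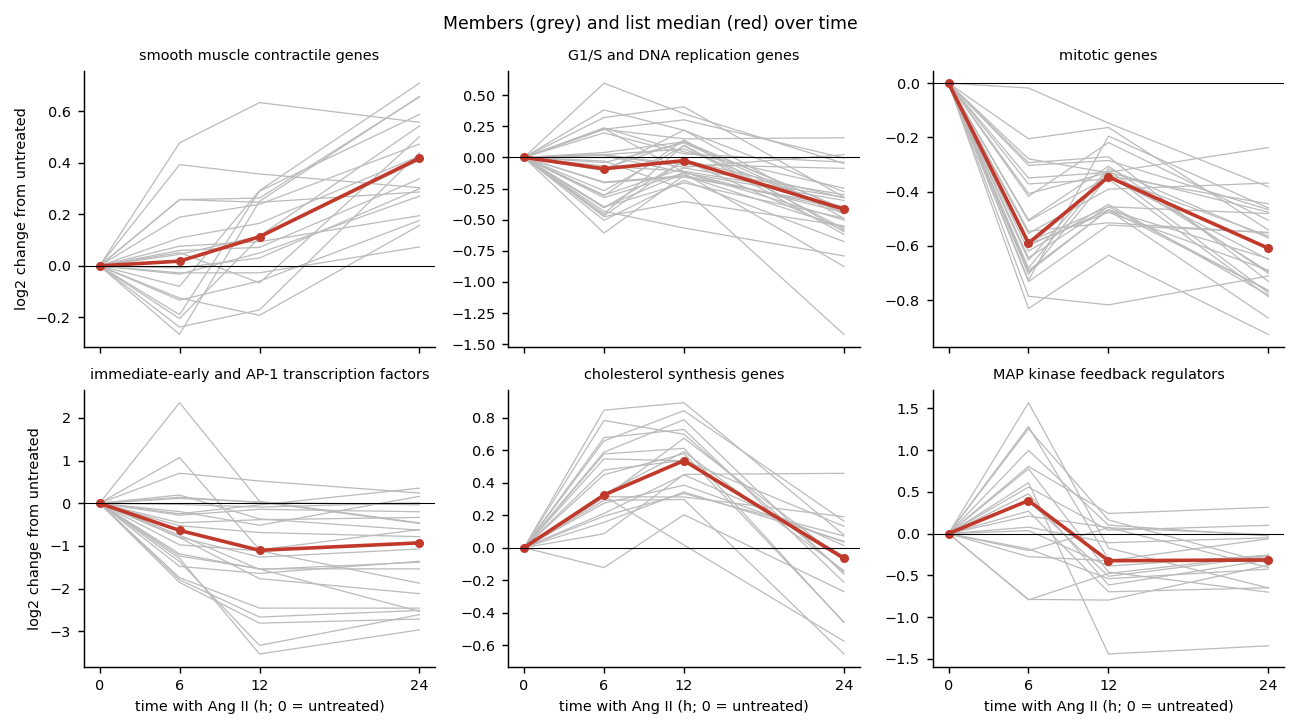
Log2 change from untreated cells (vertical axis) over the time with Ang II in hours (horizontal axis, 0 for untreated) for the members of 6 lists (grey lines) and their medians (red), on separate vertical scales. All times share the untreated arrays, and the medians at 24 h were 0.42 for the contractile, -0.42 for the G1/S, -0.61 for the mitotic, -0.93 for the immediate-early, -0.07 for the cholesterol synthesis and -0.32 for the MAP kinase feedback genes.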

How the data were processed

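The authors deposited a log2 value for each probe set on each array. The submitters' processing notes name RMA and Partek, and versions and filters were not given in the sources used here. Array medians were 7.22 to 7.32. Of 29214 rows, 15310 had 1 gene symbol in the platform annotation, 323 had several and were not named, and 13581 are unnamed here. Where a gene had several probe sets (527 genes), the brightest on average across the 12 arrays was taken, which left 14506 genes, and no filter on dim genes was applied. Symbols were looked up in a RefSeq table of GRCr8, where 14481 matched through the gene identifier, 1 through an accession and 24 kept the annotation's symbol.

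With limma 3.58.1 in R 4.3.3, 4 group means were fitted to all 12 arrays (8 residual and 3.37 prior degrees of freedom), with two-sided p-values adjusted by Benjamini-Hochberg over all genes within each comparison at 0.05. The median standard error of a log2 change was 0.0667. On simulated data for 24 h against untreated cells, with 14506 genes, 50 genes were changed at each fold and no others. Of these, 70% at 1.25-fold, 90% at 1.5-fold and 100% at 2-fold or 4-fold were recovered, with 7 false calls. In the data 30.0% of genes were called, so these rates may not carry over. The 38 gene lists (995 entries, 905 measured), the members and the rules were chosen with earlier results of these data known, and 3 lists (striated muscle, small heat shock protein and MHC class II genes) were added after the values were seen. Named are the 20 largest rises and falls with non-overlapping arrays, the most changed passing members of each list (at most 4), the 3 receptor genes, the 8 largest late rises and falls, the 5 largest in each direction against 6 h and 12 h, and up to 5 opposite genes in each direction. Other genes, such as Acta2, Myh11, Myocd, Actc1, Cdkn1a, Vcan, Bgn, Runx2, Pecam1, Ptprc, single members counted in a list, and the members of the added lists, were chosen after their values were seen. Lists are described by counts and medians, without a test. Motifs were searched on both strands in RefSeq promoters of GRCr8. Alternatives comprised quantile normalization, median centring, array weights, a trended robust variance, all probe sets or their mean per gene, genes above the median level alone, the compared groups alone, the replicate number as a block, and each array left out in turn. Python 3.11.15 with pandas 2.3.3 computed the summaries, and matplotlib 3.10.9 drew the plots.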

Additional observations from a re-analysis of the deposited data

Results flagged for a closer look

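For 10 genes the change against untreated cells had opposite signs at 24 h and 6 h and the difference between these times passed limma's test. They are the 5 of each direction with the largest change at 24 h among 569 such genes. Both changes use the same untreated arrays. The log2 difference of 24 h minus 6 h was 2.44 for the GTPase gene Rab39a (1.13 at 24 h, -1.31 at 6 h against untreated cells), 1.37 for Hspb7 (1.10 at 24 h, -0.27 at 6 h), 1.49 for the adenylyl cyclase gene Adcy5 (1.04 at 24 h, -0.45 at 6 h), 1.45 for Lyrm1 (0.96 at 24 h, -0.49 at 6 h) and 1.13 for the receptor kinase gene Mst1r (0.95 at 24 h, -0.18 at 6 h). Among genes lower at 24 h it was -1.96 for the kinase gene Plk3 (2.83-fold lower than in untreated cells at 24 h, 0.46 at 6 h), -1.95 for Dusp5 (-1.34 at 24 h, 0.61 at 6 h), -1.66 for the immediate-early gene Arc (-1.29 at 24 h, 0.37 at 6 h), -1.66 for Emp1 (-1.27 at 24 h, 0.40 at 6 h) and -1.29 for Zfp36l2, which promotes decay of mRNA (-1.09 at 24 h, 0.20 at 6 h). Of the genes higher at 24 h, the 12 h changes of Adcy5 (0.06) and Hspb7 (0.16) lay between those of the other times.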

How the results depend on the processing

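Of 196 named genes, 190 passed at 24 h against untreated cells, and 183 kept their sign and their side of the threshold in every setting tested. The sign of Serpinb2, which did not pass (0.17), turned without Ang II 24 h replicate 3 (-0.10) and was 0.36 without replicate 2 of that group. Calls were lost in at least 1 setting for Agtr1b, Cd3g, Cd4, Cdo1, Cldn5, Ddit3, Ifit2, Psma5, Psma6, Sdha and Zc3h6, and gained for C9h6orf141. Leaving out each array in turn gave 1719 to 1986 higher and 1666 to 2277 lower genes against untreated cells (220 to 257 and 302 to 369 at 1.5-fold), 2322 to 2838 and 2474 to 2955 against 6 h (393 to 452 and 477 to 587), 1536 to 1762 and 1520 to 2121 against 12 h (125 to 146 and 208 to 256), and 583 to 704 late rises with 505 to 831 late falls. Without the 24 h array of narrowest spread (replicate 2), a setting also looked at on its own after the data were seen, 1955 were higher and 1666 lower. With each array centred on its median 3559 genes were higher and 1713 lower, and 1168 were late rises. The cause was not tested. With all probe sets as features 3333 were lower, 643 of them by 1.5-fold, while 650 rose and 805 fell by 1.5-fold against 6 h, and 212 and 354 against 12 h, where more features were tested. Deviations from the group mean correlated at -0.10 to 0.30 over the 18 pairs of same-numbered arrays, and at -0.28 to 0.26 between differently numbered arrays. Deviations within a group are tied to each other, so these ranges cannot decide whether the replicate numbers pair the arrays. The replicate block gave 2244 higher and 2051 lower genes. A fit of the compared groups alone gave 2162 higher and 1882 lower. Dim genes limit what can be seen, with 9.15% called in the lowest of 4 bins by level.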
